A study of Mus musculus with 11 samples.

Results

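The secreted factors of the complement and blood clotting systems were followed in mouse liver through 39 genes, taken by name from the 23393 gene names used of the table. The list holds complement components, clotting factors and their regulators and inhibitors that hepatocytes make for the plasma. Of the 39 genes, 38 passed the filter on low values, a mean of at least 0.5 RPKM over the 11 mice, and A2M did not. RPKM scale the reads of a gene to gene length and library size, and the symbols are mouse genes written in capitals as in the table.

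Bulk RNA-seq had been performed on 11 livers, 1 library per mouse. The mice were males labelled GS WT, 7 weeks old when injected by SB-HTVI (Sleeping Beauty plasmids given hydrodynamically into the tail vein). The 3 controls are called vector control by the study, while the labels give them vehicle and a time of 0 weeks. The other 8 mice were given c-MET, ΔN90-β-catenin (an activated β-catenin that lacks its N terminus) and the SB10 transposase, and 4 livers each were taken 2 and 3 weeks later. The oncogenes were driven by an EF1α promoter, which is not specific to hepatocytes, and HTVI reaches only some of the hepatocytes, so each liver mixes cells with and without the plasmids. The inferred read totals ran from 17100000 to 27020000 reads, and the least covered of the 38 genes, PROS1, had about 1497 reads in its lowest library, a counting error of 2.58%.

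Complement is a cascade of plasma proteases and binding proteins that marks microbes and damaged cells. Its classical and lectin pathways start from recognition proteins with attached proteases, C3 is cleaved by convertases in the middle of the cascade, and the terminal components form a pore in the target membrane. Coagulation is a related protease cascade that ends with thrombin turning fibrinogen into fibrin, held in check by plasma inhibitors and later dissolved by plasmin. The liver is the main source of most of these proteins, which makes their mRNA a common readout of hepatocyte secretory function.

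The labels name hepatocytes as the cell type, and the 8 hepatocyte markers examined were all abundant, led by ALB (albumin) at 32940 to 51000 RPKM. Markers of other cells were present too, such as LYZ2 of macrophages at 23.4 to 72.0 RPKM and CLEC4G of sinusoidal endothelium at 41.9 to 63.9 RPKM, so the samples were whole liver. HBB-B1 and HBA-A1, globin genes of red cells, were listed at 0 in every mouse, and HBB-BS was not listed. ALAS2, another gene of the red cell list, was at 94.2 to 156 RPKM, so the 0 values do not show that red cell RNA was absent. In such tissue, fewer cells of a type and less RNA per cell cannot be told apart.

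The 39 genes covered a wide range of levels. Over the 11 mice, 6 of them averaged at least 1000 RPKM, 24 lay between 100 and 1000, 8 between 20 and 100, and A2M was the 1 gene under 20. Per length, the most abundant were FGB, FGG, VTN, C3 and FGA, with means of 3101, 2509, 1543, 1481 and 1302 RPKM, followed by SERPINC1 at 1059 RPKM. Together the 39 genes summed to 21530 ± 435 RPKM (SD, n = 3) in controls, 21180 ± 2431 (SD, n = 4) at 2 weeks and 19220 ± 1739 (SD, n = 4) at 3 weeks. That is 4.06%, 4.01% and 3.75% of the summed RPKM of all genes, and the single mice of the 3 groups overlapped.

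Most of the complement and coagulation genes stayed near their control level after the oncogenes were injected. For oncogene-expressing livers, both time points weighted equally, limma called 0 of 38 genes against vector control livers (adjusted p under 0.05). Of all 11170 tested genes 4.18% were called. At an unadjusted p under 0.05 there were 4 of the 38 and 2655 of all tested genes. At 2 weeks 0 of 38 were called (limma; background 0.286%), with 4 of 38 and 1342 of all tested genes at an unadjusted p under 0.05. At 3 weeks 1 of 38 was called, F13B, which was lower (limma; background 8.47% in either direction and 0.358% for lower genes), with 4 of 38 and 3470 of all at an unadjusted p under 0.05. Between 3 and 2 weeks 0 of 38 were called (limma; background 0%), with 0 of 38 and 1411 of all at an unadjusted p under 0.05. The comparisons with vector control share the same 3 control mice, so they do not count as independent.

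The absence of calls came with fairly narrow intervals. For 35 of the 38 genes the 95% confidence interval of the log2 change in oncogene-expressing livers lay within a 1.5-fold change either way. The exceptions were C6, C9 and FGB. This count and those of single time points are on the deposited scale. At 2 weeks this held for 36 genes, the exceptions being C6 and C9. At 3 weeks it held for 32, with FGA, FGG and SERPINF2 joining the 3 named exceptions. With each library centred on its median, some 3-week estimates were themselves beyond a 1.5-fold decrease (0.585 in log2). These were FGB, KLKB1, F13B, C9 and FGA, at log2 changes of -0.63, -0.62, -0.60, -0.60 and -0.59.

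**Figure D1:**
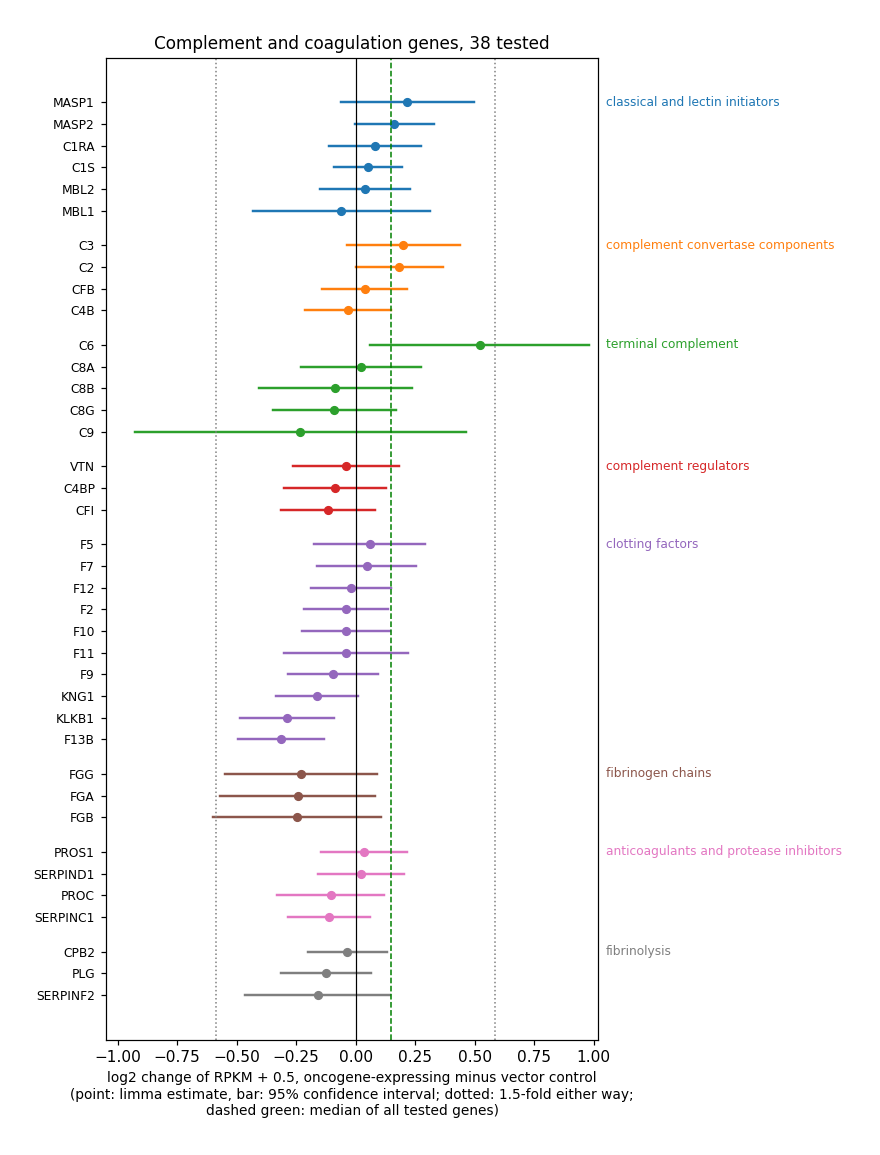
Log2 change of RPKM + 0.5 between oncogene-expressing and vector control livers for the 38 tested genes, by role, with points for limma estimates, bars for 95% confidence intervals, dotted lines at a 1.5-fold change and a dashed line at the median of all 11170 tested genes (0.15). All but 3 intervals lie between the dotted lines, and C6 has the highest and F13B the lowest estimate.

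The level of the group depends on what it is set against. The median log2 change of the 38 genes was -0.04 in oncogene-expressing livers, where the median of all tested genes was 0.15, and 24 of 38 were below 0 against 22.3% of all tested genes. At 3 weeks the medians were -0.07 and 0.21, with 27 of 38 members below 0. The median of the log2 values of a library was 0.20 higher in oncogene-expressing than in vector control livers. It was 2.58 to 2.62 in the controls, 2.65 and 2.64 in 2-week replicates 1 and 2, 2.78 and 2.85 in 2-week replicates 3 and 4, and 2.83 to 2.95 at 3 weeks. Centring each library on that median moved all genes down alike, the median of the 38 genes to -0.24 with 35 below 0, and that of all tested genes to -0.05, so the distance between them was kept. With centring F13B alone was called, as lower (limma, adjusted p = 0.0294; 0.412% of all tested genes were called lower). With the same centring, 37 of 38 were below 0 at 3 weeks, and F13B and KLKB1 were called lower (limma, adjusted p = 0.0290 and 0.0359; background 0.6%). The median of these genes lay below that of all tested genes on either scale, while on the deposited scale it stood near the control level. Which scale is nearer to the amount of RNA per cell was not tested.

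The 29 tested genes of other plasma proteins of hepatocytes, such as albumin and the apolipoproteins, gave a median log2 change of -0.12, with 23 of 29 below 0. Among them SERPINA6 was called as higher (limma, adjusted p = 0.0432, and 0.234 after median centring). ALB, the most abundant, had a log2 change of -0.25 (limma, adjusted p = 0.267). At 3 weeks the median of this list was -0.19, with 24 of 29 below 0 and 0 called (limma). After median centring it was -0.46 there, with 0 called higher and 2 lower (limma, 54 and 67 of all 11170). The 8 hepatocyte markers, led by ALB, had a median log2 change of -0.21 over both time points with 0 called (limma). All of them but CYP3A11 are also in the list of other plasma proteins, so the markers are not a separate measure. Their summed RPKM was 86280, 77620 and 81530 in the vector control livers, 82980, 83430, 73380 and 65480 at 2 weeks and 63940, 60430, 66300 and 68450 at 3 weeks. All 4 livers at 3 weeks were below all controls in that sum, and so were 2-week replicates 3 and 4, whereas 2-week replicates 1 and 2 were within the control range. Its part in the levels of complement and clotting genes was not tested.

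The mice within an oncogene group differed more than the controls did. The median log2 difference of the 38 genes from the control mean was 0.09 and 0.10 in 2-week replicates 1 and 2, and -0.14 and -0.02 in replicates 3 and 4. At 3 weeks it was 0.02, -0.00070, -0.17 and -0.12 in replicates 1 to 4. The number of members below the control mean ran from 10 of 38 in 2-week replicates 1 and 2 to 29 of 38 in 2-week replicate 3 and 3-week replicate 3, so the same time point held mice on both sides. By the digits in the library names of the labels, 2-week replicates 1 and 2 have the lowest numbers, the controls come next, and the other 6 oncogene-injected mice have the highest. What the numbers stand for is not stated. No control has a number in the ranges of the oncogene-injected mice, so between control and oncogene-injected mice number and condition cannot be told apart, whereas the 2-week group holds mice of both the lowest and the highest range.

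**Figure D2:**
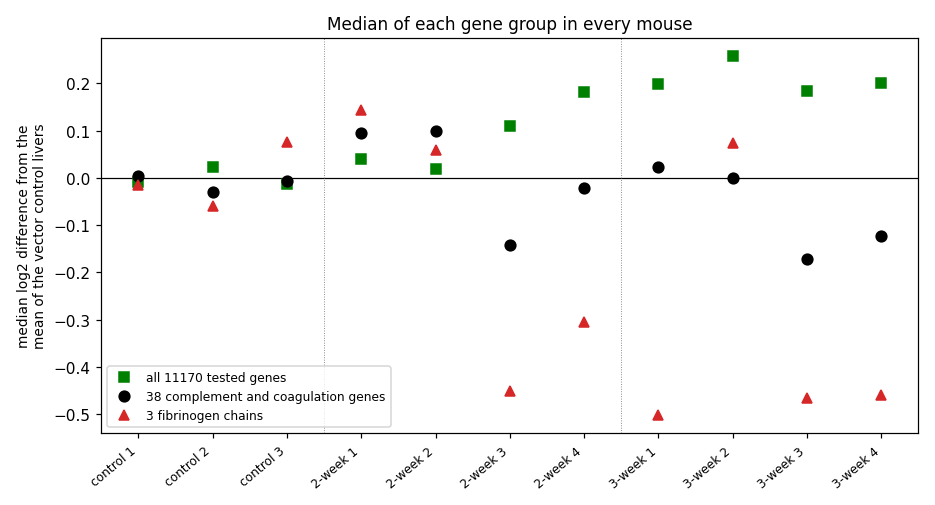
Median log2 difference from the mean of the vector control livers in each of the 11 mice, for all 11170 tested genes (squares), the 38 complement and coagulation genes (circles) and the 3 fibrinogen chains (triangles). The circles run from -0.17 to 0.10 and the triangles from -0.50 to 0.14, and the squares of the 4 livers at 3 weeks lie at 0.18 to 0.26.

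The initiators of the classical and lectin pathways are the proteases C1RA and C1S of the C1 complex, the mannose-binding lectins MBL1 and MBL2, and the lectin pathway proteases MASP1 and MASP2. None of the 6 was called in any comparison (limma, smallest adjusted p = 0.155, MASP2 at 3 weeks). MASP1, on chromosome 16 from 23451785 to 23521240 (mm10), had the second highest estimate of the 38 genes. Its level was 29.5, 25.0 and 26.6 RPKM in the vector control livers, 28.2, 28.1, 30.6 and 39.5 RPKM at 2 weeks and 33.1, 25.4, 31.7 and 37.7 RPKM at 3 weeks. Replicate 4 was the highest mouse in both oncogene groups, and 3 of the 8 oncogene-expressing livers lay within the control range (log2 change 0.22, standard error 0.13, limma, adjusted p = 0.318; 0.02 and 0.950 after median centring). MASP2 was above all controls in 7 of 8 livers (log2 change 0.16, limma, adjusted p = 0.215; -0.03 and 0.873 after median centring), but it shares 52.5% of its 50-base words with Tardbp, a gene on the opposite strand. C1S was the steadiest, at 159 to 179 RPKM over all mice, but C1S and C1RA share 35.1% and 50.8% of their words with other genes, of which the paralogs C1s2 and C1rb hold 21.9% and 48.0%. MBL2, the most abundant of the group, spanned 450 to 580 RPKM. MBL1 spread from 176 to 328 RPKM, with both extremes in oncogene-injected mice, 3-week replicate 3 and 2-week replicate 2, and only 261 to 265 RPKM in the controls.

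Among the parts of the convertases, which cleave C3 and C5, C3 was the most abundant. C3 lies on chromosome 17 from 57203967 to 57228136. It was at 1446, 1255 and 1292 RPKM in the vector control livers, 1583, 1544, 1666 and 1667 RPKM at 2 weeks and 1821, 1403, 1241 and 1375 RPKM at 3 weeks. All 4 livers at 2 weeks were above all controls, whereas the 3-week livers held both the highest and the lowest of the 11 values. Neither time point passed the test (log2 change 0.28 at 2 weeks and 0.12 at 3 weeks, limma, adjusted p = 0.380 and 0.510). Over both times its log2 change was 0.20, and 0.00445 after median centring. C2, the protease of the classical convertase, was above all controls in 6 of 8 livers (log2 change 0.18, limma, adjusted p = 0.205; -0.01 and 0.962 after median centring). CFB, its counterpart in the alternative pathway, had a log2 change of 0.04, and C4B, the fourth component, one of -0.03. C2 and CFB are neighbours on chromosome 17 and share 41.6% and 73.0% of their 50-base words with other genes, mostly a readthrough transcript that joins them, so their reads could be split or lost in counting.

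C4B shares 34.6% of its 50-base words with its paralog C4A, and the pair did not move alike. C4A was at 9.26, 15.5 and 4.45 RPKM in the vector control livers, 8.89, 11.8, 27.8 and 20.4 RPKM at 2 weeks and 46.2, 34.4, 20.4 and 21.4 RPKM at 3 weeks. It was above every control in 6 of 8 oncogene-expressing livers, including all 4 at 3 weeks, where its log2 change was 1.68 and it was called higher (limma, adjusted p = 0.0385; 0.108 after median centring). C4B was at 140 to 153 RPKM in the controls and 128 to 158 RPKM in the other mice. C4A was singled out after its values were seen, and reads that fit both genes could shift its level.

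The terminal components C6, C8A, C8B, C8G and C9 build the membrane pore. C6 lies on chromosome 15 from 4727067 to 4804045 and had the largest estimate of the 38 genes. Its level was 119, 113 and 93.3 RPKM in the vector control livers, 136, 192, 104 and 187 RPKM at 2 weeks and 149, 243, 127 and 142 RPKM at 3 weeks. Of the 8 oncogene-expressing livers, 7 were above all controls, and 2-week replicate 3 lay within the control range. The log2 change was 0.52 with a 95% interval of 0.06 to 0.98, which did not pass the test over all genes (limma, adjusted p = 0.166; 0.32 and 0.445 after median centring). HC, which encodes the complement component C5 and belongs to the wider complement list, was 35.0 to 37.4 RPKM in the controls and 44.9 to 76.5 RPKM at 3 weeks, where it rose in 4 of 4 livers, by a log2 change of 0.59 (limma, adjusted p = 0.0463; 0.232 after median centring). 3-week replicate 2 was the highest mouse for both C6 and HC.

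C9, the polymerizing subunit of the pore, varied most among the tested members. It was at 436, 708 and 806 RPKM in the vector control livers, 713, 758, 274 and 724 RPKM at 2 weeks and 625, 621, 305 and 528 RPKM at 3 weeks. Replicate 3 was the lowest mouse in both oncogene groups, and control replicate 1 was itself well below the other controls. The 95% interval of its change accordingly ran from -0.93 to 0.46 on the log2 scale, so a decrease of more than 1.5-fold lay inside it. The subunits of C8 were more even, with log2 changes of 0.02, -0.09 and -0.09 for C8A, C8B and C8G. The ratio of C8A to C8B per length averaged 1.09 in controls and 1.20 at 3 weeks.

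The complement regulators were VTN (vitronectin, which blocks pore assembly and also binds matrix), CFI (the protease that cleaves C3b and C4b) and C4BP (a cofactor of CFI). VTN, on chromosome 11 from 78499120 to 78502325, was at 1606, 1636 and 1465 RPKM in the vector control livers, 1798, 1712, 1408 and 1539 RPKM at 2 weeks and 1589, 1572, 1263 and 1382 RPKM at 3 weeks. Replicate 3 was the lowest mouse at both times, as for C9, and the groups overlapped (log2 change -0.04, limma, adjusted p = 0.843; -0.24 and 0.355 after median centring). CFI was below all controls in 4 of 4 livers at 3 weeks, by a log2 change of -0.18 that did not pass (limma, adjusted p = 0.232). C4BP had a log2 change of -0.08 at 3 weeks (limma, adjusted p = 0.653).

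The 10 clotting factor genes held the single call. F13B encodes the carrier subunit of factor XIII, the enzyme that cross-links fibrin, and lies on chromosome 1 from 139501547 to 139523758. Its level was 135, 142 and 155 RPKM in the vector control livers, 107, 119, 117 and 127 RPKM at 2 weeks and 119, 105, 125 and 109 RPKM at 3 weeks. Every one of the 8 oncogene-expressing livers was below every control, and F13B was the 1 member of 38 with such a gap, which 0.636% of all tested genes showed. In the other direction 0 of 38 members had every oncogene-expressing liver above every control, against 6.87% of all tested genes. For gaps at a single time point, given for C3, C4A, HC, CFI, KLKB1, SERPINC1 and PLG, the share of all tested genes was not counted. Such gaps are descriptions only. At 3 weeks F13B averaged 114 ± 9.11 RPKM (SD, n = 4) against 144 ± 10.2 RPKM (SD, n = 3) in controls, and its log2 change of -0.33 (standard error 0.09) was called by limma (adjusted p = 0.0490). Its log2 change was -0.29 at 2 weeks (limma, adjusted p = 0.222) and -0.31 over both time points (limma, adjusted p = 0.0551), and 3 weeks and 2 weeks did not differ beyond the spread (log2 difference -0.04, limma, adjusted p = 0.844).

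The call of F13B was fragile. It was lost without any 1 of the 3 control mice (limma, adjusted p = 0.0984, 0.0973 and 0.170 without replicate 1, 2 and 3), and over all 23 alternatives the adjusted p ran from 0.0125 to 0.170, under 0.05 in 10 of them. The log2 change was negative in each of these alternatives, from -0.60 to -0.28. F13A1, which encodes the catalytic subunit of factor XIII and is made by other cells, was at 0 to 0.195 RPKM and was not tested.

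KLKB1, plasma prekallikrein of the contact system, had the next lowest estimate and lies on chromosome 8 from 45266688 to 45294835. It was at 115, 109 and 122 RPKM in the vector control livers, 104, 100, 81.4 and 110 RPKM at 2 weeks and 93.2, 86.1, 90.6 and 92.2 RPKM at 3 weeks. All 4 livers at 3 weeks lay below all controls and close to each other, and 2-week replicate 4 alone reached the control range. The log2 change at 3 weeks was -0.35, just short of the threshold (limma, adjusted p = 0.0556), and an overlapping gene model holds 42.7% of its 50-base words. Its substrate KNG1, the kininogen that releases bradykinin, had a log2 change of -0.19 at 3 weeks (limma, adjusted p = 0.171), with 17.2% of its words shared with Kng2. F12 and F11, the other contact factors, had log2 changes of -0.07 and -0.14 at 3 weeks (limma, adjusted p = 0.601 and 0.477).

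The vitamin K-dependent factors, whose glutamates are carboxylated before secretion, kept close to the controls. F2 (prothrombin), the most abundant, was at 989 to 1026 RPKM in the controls and 898 to 1088 RPKM in the other mice (log2 change -0.04). F7, F9 and F10 had log2 changes of 0.05, -0.09 and -0.04, and the anticoagulants PROC and PROS1 had changes of -0.10 and 0.03. F5, the cofactor of F10, had a log2 change of 0.06. The smallest adjusted p among the 6 vitamin K-dependent members in oncogene-expressing livers was 0.516 (limma).

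The 3 fibrinogen chains differed among the mice of each oncogene group. Their genes sit side by side on chromosome 3, FGG from 83007724 to 83015056, FGA from 83026153 to 83033627 and FGB, on the opposite strand, from 83042246 to 83049863. FGA was at 1458, 1378 and 1520 RPKM in the vector control livers, 1614, 1373, 1064 and 1201 RPKM at 2 weeks and 1024, 1580, 1050 and 1055 RPKM at 3 weeks. FGB was at 3413, 3313 and 3637 RPKM, then 3814, 3834, 2401 and 2792 RPKM, and 2373, 3546, 2491 and 2500 RPKM in the same order of groups. FGG was at 2701, 2676 and 2974 RPKM, then 2985, 2896, 2034 and 2215 RPKM, and 2009, 2926, 2160 and 2022 RPKM. For each chain, 2-week replicates 3 and 4 and 3-week replicates 1, 3 and 4 were below all controls, while 2-week replicates 1 and 2 and 3-week replicate 2 stood at or near the control range or above it. Both oncogene groups thus held high and low mice, and the groups overlapped.

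No chain passed the test. The log2 changes of FGA, FGB and FGG were -0.24, -0.25 and -0.23 in oncogene-expressing livers (limma, adjusted p = 0.331, 0.364 and 0.351), -0.44, -0.44 and -0.43 after median centring (limma, adjusted p = 0.201, 0.246 and 0.225) and -0.33, -0.36 and -0.30 at 3 weeks (limma, adjusted p = 0.204, 0.198 and 0.220). The chains largely moved together: the ratio of FGB to FGG per length averaged 1.24 in controls, 1.26 at 2 weeks and 1.20 at 3 weeks. FGB was the highest and FGA the lowest in every mouse. The ratio of FGB to FGA stood apart in 2-week replicate 2, at 2.79 against 2.24 to 2.40 in the other mice. In sum the chains made up 34.9% to 37.0% of the RPKM of the 39 genes in the controls and 27.6% to 37.5% in the other mice. By library name, 3-week replicate 2 and the 5 low mice are the 6 with the highest numbers, and the part of these numbers in the values was not tested. The same mouse had the most GLUL, a β-catenin target, at 1124 RPKM, while 2-week replicate 1 had the least among the oncogene-expressing livers at 476 RPKM. The part of the oncogene level in the fibrinogen values was not tested.

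**Figure D3:**
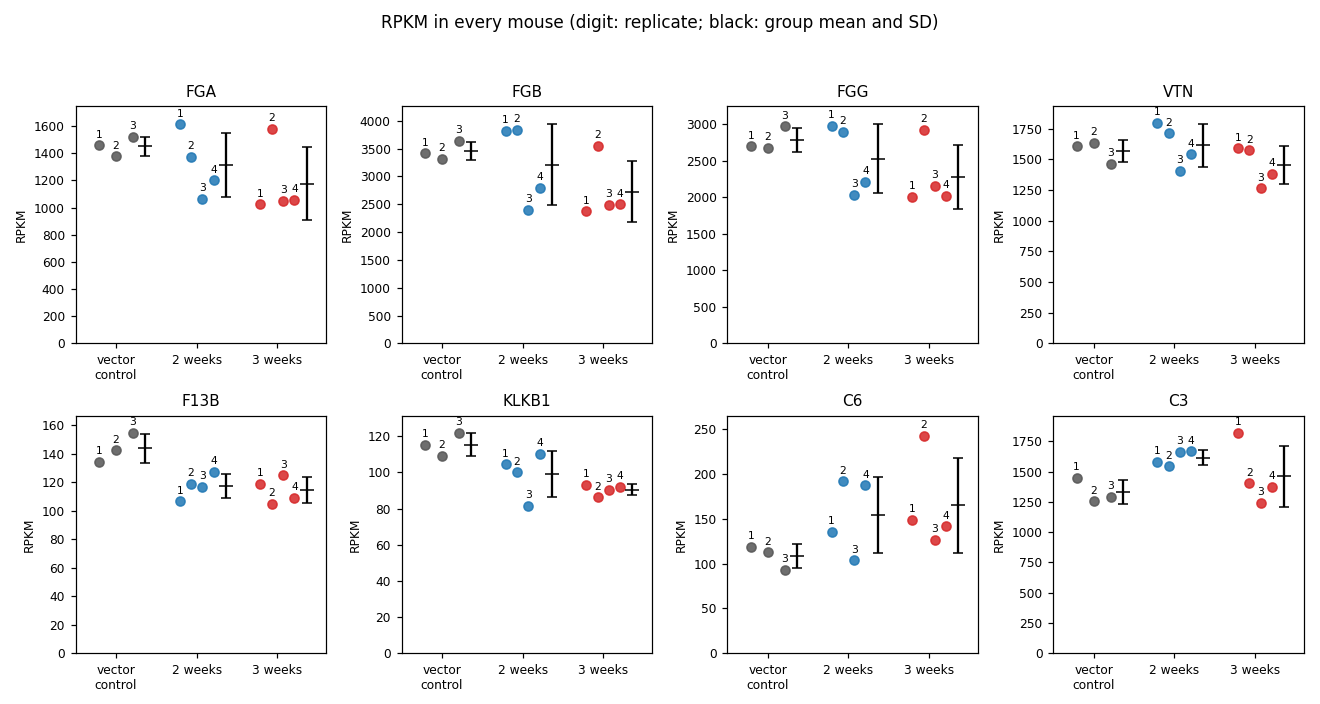
RPKM in every mouse for the 3 fibrinogen chains, VTN, F13B, KLKB1, C6 and C3, with the replicate number beside each point and the group mean and SD in black. The F13B points of all 8 oncogene-expressing livers lie below the controls, and the fibrinogen chains split at both time points, with 3-week replicate 2 at the control level.

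The sequences before the starts of the fibrinogen genes are shown because the chains largely moved together. They are the 250 bases before each annotated start, from RefSeq (GRCm38.p6, the assembly of mm10), written in the direction of transcription: chr3:83007474-83007723 on the plus strand for FGG, chr3:83025903-83026152 on the plus strand for FGA and chr3:83049864-83050113 on the minus strand for FGB. Capitals mark CTGGGA, the core of the response element through which interleukin-6 acts on fibrinogen genes.
FGG: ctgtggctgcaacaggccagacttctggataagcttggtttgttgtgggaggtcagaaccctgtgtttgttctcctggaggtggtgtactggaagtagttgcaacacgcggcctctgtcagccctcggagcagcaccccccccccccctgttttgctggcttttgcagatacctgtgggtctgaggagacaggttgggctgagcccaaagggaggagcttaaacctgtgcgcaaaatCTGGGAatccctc
FGA: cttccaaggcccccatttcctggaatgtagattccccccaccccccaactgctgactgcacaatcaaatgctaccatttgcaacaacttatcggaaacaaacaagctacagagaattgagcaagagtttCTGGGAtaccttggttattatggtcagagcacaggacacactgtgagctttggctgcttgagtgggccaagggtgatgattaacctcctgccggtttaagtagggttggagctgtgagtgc
FGB: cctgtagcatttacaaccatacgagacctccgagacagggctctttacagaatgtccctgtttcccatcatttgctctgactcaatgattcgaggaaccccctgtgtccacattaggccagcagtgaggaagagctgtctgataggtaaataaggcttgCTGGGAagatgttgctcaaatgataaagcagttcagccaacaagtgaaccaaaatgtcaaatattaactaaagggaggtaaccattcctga
CTGGGA, searched on both strands, begins 13, 121 and 91 bases before the starts of FGG, FGA and FGB, and 27.0% of 32851 mouse promoter windows of this length hold it. TTGCNNAA, a core of C/EBP sites, occurs before FGA and FGB and in 9.6% of the windows, and it was not in the window of FGG. The same holds for GTTAAT, a half-site of HNF1, which 6.4% of the windows hold. A match is a description of the sequence and does not show that a factor binds there.

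The plasma inhibitors of clotting were SERPINC1 (antithrombin), SERPIND1 (heparin cofactor II), PROC, PROS1 and A2M. None of the 4 tested was called (limma, smallest adjusted p = 0.191, SERPINC1 at 3 weeks). SERPINC1 was below all controls in 4 of 4 livers at 3 weeks, at 910 to 1059 RPKM against 1092 to 1154 RPKM, and 33.6% of its 50-base words are shared, nearly all with an antisense gene. A2M was at 0, 0.055 and 0.10 RPKM in the controls and reached 0.689 RPKM in 3-week replicate 4, which is 0 to 92 inferred reads. PZP, a related broad protease inhibitor of mouse plasma, was at 1103 to 1407 RPKM, and the murinoglobulin MUG1 at 446 to 746 RPKM.

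Fibrinolysis was represented by PLG (plasminogen), SERPINF2 (the main plasmin inhibitor) and CPB2 (a carboxypeptidase that protects fibrin). PLG was below all controls in 4 of 4 livers at 3 weeks, at 850 to 1004 RPKM against 1040 to 1071 RPKM. How many of all tested genes had such a gap was not counted. The log2 change of PLG was -0.20 and did not pass (limma, adjusted p = 0.176). SERPINF2 varied more, from 238 to 411 RPKM over all mice, and CPB2 little, from 301 to 362 RPKM. All 3 estimates were below 0 at 3 weeks, and 0 were called (limma).

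Outside the 39 genes, the wider complement list had 21 tested genes, of which 0 were called higher and 2 lower in oncogene-expressing livers, where 442 of all 11170 tested genes were called higher and 25 lower (limma). FCNA (ficolin A, a lectin pathway recognition protein of macrophages) and COLEC10 (collectin liver 1) were the lower ones, with log2 changes of -0.55 and -0.61 (limma, adjusted p = 0.0289 and 0.0368; 0.0154 and 0.0159 after median centring). FCNA was at 29.6 to 31.7 RPKM in the controls and 17.0 to 26.5 RPKM in the 8 oncogene-expressing livers, and COLEC10 at 5.96 to 8.10 RPKM and 3.21 to 5.51 RPKM. Both were below every control in 8 of 8 livers. At 3 weeks 2 of 21 were called higher, C4A and HC, and 0 lower (limma, 906 and 40 of all 11170). FCNA and COLEC10 had adjusted p = 0.0637 and 0.0796 there (limma). After median centring the 3-week calls turned round, with 0 of 21 higher and 2 lower (limma, 54 and 67 of all). The 2 lower genes were FCNA and COLEC10 (limma, adjusted p = 0.02985 and 0.03586). Of 12 macrophage markers 11 had estimates above 0 and 0 were called (median log2 change 0.27, limma), with LYZ2 the most abundant and none at 0 in every mouse. Their summed RPKM was 227, 253 and 239 in the controls, 251, 337, 313 and 227 at 2 weeks and 276, 356, 263 and 325 at 3 weeks, and their part in the FCNA values was not tested. Of 8 endothelial markers 4 had estimates below 0 and 4 above, and 0 were called (limma). CLEC4G, the most abundant of them, was below every control in 8 of 8 livers (log2 change -0.32, limma, adjusted p = 0.0680, and 0.0242 after median centring). The part of endothelial cells in the FCNA and COLEC10 values was not tested. The more abundant lectins MBL1 and MBL2 were not called (limma, adjusted p = 0.859 and 0.819). CLU (clusterin), the most abundant of the list, had a log2 change of 0.09 (limma, adjusted p = 0.501).

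In the list of other coagulation and fibrinolysis genes, 2 of 19 tested genes were called higher and 0 lower (limma, 442 and 25 of all 11170). After median centring 1 of 19 was called higher (49 of all). At 3 weeks 1 of 19 was called higher and 0 lower (limma, 906 and 40 of all), and 1 higher and 1 lower after median centring (54 and 67 of all). SERPINE2 (protease nexin 1, an inhibitor of thrombin at cell surfaces) was at 2.23 to 4.42 RPKM in the vector control livers, 4.69 to 8.52 RPKM at 2 weeks and at least 7.85 RPKM in every liver at 3 weeks. All 8 oncogene-expressing livers were above all controls (log2 change 1.42, limma, adjusted p = 0.0123; 0.0205 after median centring). F2R, the thrombin receptor PAR1, which hepatocytes hardly express, was called higher too (log2 change 0.57, limma, adjusted p = 0.0363; 0.145 after median centring). APOH, the most abundant gene of the list, had a log2 change of -0.10 (limma, adjusted p = 0.434). The stellate cell and fibroblast markers COL1A1 and PDGFRB were also called higher, 2 of 9 tested (442 of all 11170), at levels near 1 RPKM and with log2 changes of 0.87 and 0.76 (limma, adjusted p = 0.0133 and 0.0121). DCN, the most abundant marker of that list, was below every control in 8 of 8 livers instead (log2 change -0.32, limma, adjusted p = 0.0785; 0.0374 after median centring). The summed RPKM of that marker list, led by DCN, was 86.1, 82.1 and 93.9 in the controls, 57.8, 72.5, 82.0 and 76.2 at 2 weeks and 92.0, 85.6, 88.3 and 89.7 at 3 weeks. Of the 9 markers 8 had estimates above 0 (median log2 change 0.44), and COL1A1 and PDGFRB were called after median centring as well (limma, adjusted p = 0.0422 and 0.0473). The part of these cells in the F2R and SERPINE2 values was not tested.

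The machinery that modifies and exports plasma proteins was measured on 26 genes of the vitamin K cycle, the endoplasmic reticulum and its transport vesicles. Its median log2 change was 0.17, near that of all tested genes (0.15). SURF4, a cargo receptor for export from the endoplasmic reticulum, was called higher over both time points, by 0.33 in log2 (limma, adjusted p = 0.0276; 0.429 after median centring). It was at 89.8 to 104 RPKM in the controls and 109 to 128 RPKM in all 8 others. At 3 weeks 4 of 26 were called higher and 0 lower, where 906 of all 11170 tested genes were called higher and 40 lower (limma). Besides SURF4 they were XBP1 (a transcription factor of secretory capacity), SEC61A1 (the translocon) and LMAN1 (the cargo receptor of F5 and F8), with log2 changes of 0.58, 0.40 and 0.42 (limma, adjusted p = 0.0245, 0.0453 and 0.0499). None of the 4 was called at 3 weeks after median centring (limma, adjusted p = 0.280 to 0.574). HSPA5, the most abundant gene of the list, and VKORC1, the vitamin K reductase, had log2 changes of -0.01 and -0.09 over both time points.

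Of 22 acute phase genes 1 was called (442 higher of all 11170), SAA2, which was higher by a log2 change of 1.42 (limma, adjusted p = 0.0318; 0.0874 after median centring), and HP (haptoglobin), the most abundant, had a log2 change of 0.04 (limma, adjusted p = 0.902). The median of that list was 0.01, and fibrinogen, itself an acute phase protein, had negative estimates for all 3 chains. The 17 liver-enriched transcription factors had a median log2 change of 0.10, with 11 of 17 above 0. At 3 weeks 2 of 17 were called higher and 0 lower (limma; 906 and 40 of all 11170), and 0 higher and 2 lower after median centring (54 and 67 of all). In the other direction, 1 of 17 (25 of all 11170), FOXA3 was called lower over both time points (log2 change -0.53, limma, adjusted p = 0.0464; 0.0239 after median centring), and 7 of 8 livers were below all controls. HNF4A, the most abundant of them and a regulator of many clotting factor genes, was below all controls in 8 of 8 livers, at a log2 change of -0.25 that did not pass (limma, adjusted p = 0.129; 0.0512 after median centring). At 3 weeks HNF4A was called lower only with centring (limma, adjusted p = 0.0927 without and 0.0356 with it). By contrast 11 of 17 tested pericentral and β-catenin-induced genes were called higher (limma; 442 of all 11170), and 6 of 17 after median centring (49 of all). Their median log2 change was 1.08, led by NKD1 and RHBG at 2.10 and 1.94 and followed by SLC1A2, OAT and GLUL at 1.73, 1.59 and 1.46. The most abundant gene of that list, CYP2E1, had a log2 change of -0.21 (limma, adjusted p = 0.227). In the same comparison the highest log2 change among the 38 complement and coagulation genes was 0.52, that of C6.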

How the data were processed

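RPKM deposited by the authors for 23420 gene names were used, from HISAT2 alignments to mm10 (versions not given). Of these names, 27 consist of digits alone and were dropped. The study's count-based DEseq test could not be repeated, since counts were not used here. Read totals were inferred from the steps between low RPKM values and tested on simulated data. RefSeq gave coordinates and promoters, and all 39 members were matched to it, C1S by an older symbol. Exon lengths, exon overlaps and the transcript words of 50 bases came from GENCODE. Words of 10 members were shared with other genes at over 5%. Reads were counted by featureCounts, with settings for shared reads not given. Labels and methods name different library kits, so it is unknown whether counting used the strand, on which antisense overlaps depend (C1S, MASP2, C2, F5, FGG, SERPINC1 and PLG).

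In limma 3.58.1 (R 4.3.3) log2(RPKM + 0.5) was modelled jointly for the 3 groups, using the intensity trend. The 11170 tested genes had a mean of 0.5 RPKM or more, and p-values were adjusted over them by the Benjamini-Hochberg method. Fold changes of weak genes are understated on this scale. Values in every mouse are given for members called in any comparison, the 3 highest and 3 lowest estimates and the 5 most abundant members. C9, A2M and some further genes were named after their values were seen. The members and lists were chosen with earlier results of these data known. Python 3.11.15, pandas 2.3.3, numpy 2.4.6 and matplotlib 3.10.9 were used for tables and figures. Alternatives covered the pseudocount, filter, scaling, trend, weights, groups in the fit, replicate block and mice left out.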

Additional observations from a re-analysis of the deposited data

Results flagged for a closer look

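In 5 of the 78 groups of 4 mice examined (39 genes at 2 and 3 weeks), the highest or lowest mouse stood far from the others of its group, where chance gives about 3.9, or 1 in 20. At 3 weeks replicate 2 was high in all 3 fibrinogen chains, at 1580 RPKM of FGA, 3546 RPKM of FGB and 2926 RPKM of FGG. These neighbouring genes largely moved together, so the 3 values do not count as separate events. At 3 weeks replicate 3 was high in C1S, at 179 RPKM, above the other mice by a few RPKM. At 2 weeks replicate 3 was low in C9, at 274 RPKM. No mouse was left out for these values, and no cause was tested.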

How the results depend on the processing

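With 3 or 4 mice per group, the number of calls depended on the settings and on single mice. Members called in oncogene-expressing livers (0) became 1 with each library centred on its median and 2 with array weights, and 0 to 1 with single mice left out. At 3 weeks the 1 call became 0 without a filter, with libraries rescaled to the same sum, with quantile normalization, without the intensity trend or with the replicate block, 2 with median centring, with only the groups compared in the fit or without 2-week replicates 1 and 2, 3 with array weights, and 0 to 2 with single mice left out. The 0 members called at 2 weeks, and between 3 and 2 weeks, stayed at 0 in all 23 alternatives. The median log2 change of the members was -0.24 with median centring and -0.06 to -0.01 with single mice left out. Over all genes, the 467 calls in oncogene-expressing livers became 264 without a filter, 95 with median centring, 78 with quantile normalization, 1541 with array weights, 1513 without 2-week replicates 1 and 2, and 32 to 637 with single mice left out, with the lowest without control replicate 1. Of the 467 calls 442 were higher and 25 lower, and after median centring 49 were higher and 46 lower. The 32 calls at 2 weeks became 10 without a filter, 73 with array weights, 221 without 2-week replicates 1 and 2, and 7 to 60 with single mice left out. The 946 calls at 3 weeks became 121 with median centring, 92 with quantile normalization, 3005 with array weights, 1745 with only the groups compared, 1782 without 2-week replicates 1 and 2, and 118 to 1098 with single mice left out. Between 3 and 2 weeks, 1 gene was called with quantile normalization and with array weights, and 0 to 1 with single mice left out. The replicate block gave 93 calls in oncogene-expressing livers and 350 at 3 weeks. Deviations from the group means correlated at 0.009 to 0.28 in same-numbered pairs, over 0.1 in 2 of 10. Those were replicates 1 and replicates 3 of the 2-week and 3-week groups, at 0.216 and 0.28. Differently numbered pairs ran from -0.237 to 0.129. Whether replicate numbers pair any of these mice cannot be decided from these values. The fit with only the groups compared gives no value for the mean of both time points. The 10 log2 estimates followed, of 9 members, kept their sign in every alternative, but median centring took MASP1 from 0.22 to 0.02, C3 from 0.20 to 0.00445, C6 from 0.52 to 0.32, FGA from -0.24 to -0.44, FGB from -0.25 to -0.44, FGG from -0.23 to -0.43, KLKB1 from -0.29 to -0.48, VTN from -0.04 to -0.24 and F13B from -0.31 to -0.51 (at 3 weeks from -0.33 to -0.60).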
